A study of Rattus norvegicus with 6 samples.

Results

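Adipocytes, the lipid-storing cells of fat tissue, are defined by a small set of genes for hormones they secrete, for the coat of the lipid droplet, for the uptake and release of fatty acids and for the nuclear receptor that drives their differentiation. The genes described here are 10 such genes, chosen by symbol (Adipoq, Lep, Retn, Plin1, Cidec, Lipe, Lpl, Cd36, Fabp4 and Pparg). Of these, 9 were matched by name among the 18625 named genes of the table, and Cd36 is not analysed here. The libraries are RNA sequencing of islets, clusters of endocrine cells in the pancreas, isolated fresh from rats after birth (postnatal, labelled neonatal, 3 libraries) and at embryonic day 19 (fetal E19, 3 libraries). All postnatal titles state 2 weeks of age, whereas the age labels give postnatal week 2, 3 and 4 for replicates 1, 2 and 3. No strain, sex, treatment or genetic change is named in the labels used here, and nothing says whether a library holds pooled animals or whether replicates came from separate ones, so a p-value here reflects the spread among 3 libraries per group, and part or all of that spread may be technical.

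PPARG, with its partner RXRA, binds regulatory DNA and switches on most of the other genes of the set. Lipoprotein lipase, the product of Lpl, releases fatty acids from circulating lipoproteins, FABP4 carries them inside the cell, perilipin 1 and CIDEC coat and enlarge the droplet in which they are stored as triglyceride, and hormone-sensitive lipase, encoded by Lipe, helps to release them again. Adiponectin, leptin and resistin are the hormones that fat cells send out. Not all of these genes are confined to adipocytes: Fabp4 and Lpl are also known from capillary endothelium and macrophages or stromal cells, and Lipe from the beta cell. Pancreatic islets are not a fat tissue, but the pancreas holds fat cells between its lobules.

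The table gives read counts scaled for each library, on a CPM-like scale called scaled CPM here, from 28.2 to 29.5 M reads in the postnatal and 26.1 to 37.8 M in the fetal libraries. Each value is a whole number of reads times a constant for its library, and 3 reads are worth 0.102 to 0.152 scaled CPM in the postnatal and 0.0726 to 0.0925 in the fetal libraries. Marker shares of several tissues differed between the libraries. Listed islet hormone genes took 4.06% to 11.01% of the postnatal and 0.214% to 0.612% of the fetal reads. Listed acinar enzyme genes took 34.6% in postnatal replicate 1, 19.5% and 17.5% in postnatal replicates 2 and 3, and 5.76% to 7.73% in the fetal libraries. Fetal replicate 2 stood apart by its liver transcripts, at 0.843% of the reads against 0.0368% and 0.0395% in fetal replicates 1 and 3. Listed red blood cell genes took 0.0664% to 0.159% of the postnatal and 0.322% to 1.14% of the fetal reads. All 7 of them were called lower (limma adjusted p under 0.05), against 33.1% of the 12926 genes tested. The count was 6 under some alternatives, such as without fetal replicate 2, where Epb42 lost its call. The hormone, acinar and red blood cell shares moved with the groups, and their part in the results below was not tested. In bulk RNA, fewer cells of a type and less RNA per cell cannot be told apart.

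Start-site sequences are shown for the genes of the set whose levels moved most, and for those that hold a match to the C/EBP motif, because C/EBP proteins act with PPARG in fat cells. RefSeq (assembly GRCr8) gave 7 windows for 6 of the genes (Adipoq, Cidec, Lep, Plin1, Retn, and 2 start sites of Pparg), each running from 250 bases before to 50 bases after the annotated start. Capitals mark matches to the motifs searched on both strands, and the rest is in lower case, 5′ to 3′ on the strand of the gene.
Adipoq, chr11:91240120-91240419, minus strand: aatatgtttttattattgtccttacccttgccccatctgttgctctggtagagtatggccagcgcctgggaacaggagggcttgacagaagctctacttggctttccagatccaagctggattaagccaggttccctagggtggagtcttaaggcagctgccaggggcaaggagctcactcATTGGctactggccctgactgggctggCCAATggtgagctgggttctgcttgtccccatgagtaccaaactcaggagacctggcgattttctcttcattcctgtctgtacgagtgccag
Plin1, chr1:143086099-143086398, minus strand: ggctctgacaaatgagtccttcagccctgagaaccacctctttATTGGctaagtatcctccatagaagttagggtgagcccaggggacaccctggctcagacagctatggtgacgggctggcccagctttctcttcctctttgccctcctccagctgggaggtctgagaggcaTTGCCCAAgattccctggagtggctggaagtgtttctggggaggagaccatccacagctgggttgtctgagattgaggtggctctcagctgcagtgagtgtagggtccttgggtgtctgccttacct
Cidec, chr4:148137066-148137365, minus strand: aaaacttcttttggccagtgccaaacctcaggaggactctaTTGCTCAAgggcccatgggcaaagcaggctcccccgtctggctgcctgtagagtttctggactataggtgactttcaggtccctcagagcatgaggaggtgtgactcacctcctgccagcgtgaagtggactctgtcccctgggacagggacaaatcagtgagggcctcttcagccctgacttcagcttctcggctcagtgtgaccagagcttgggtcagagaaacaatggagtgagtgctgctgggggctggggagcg
Lep, chr4:58626288-58626587, plus strand: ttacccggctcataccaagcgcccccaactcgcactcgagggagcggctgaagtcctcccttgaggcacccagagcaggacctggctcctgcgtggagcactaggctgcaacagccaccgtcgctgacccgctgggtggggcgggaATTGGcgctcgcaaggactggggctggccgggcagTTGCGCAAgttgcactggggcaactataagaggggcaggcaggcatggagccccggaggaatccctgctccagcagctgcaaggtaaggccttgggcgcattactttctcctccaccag
Pparg, downstream start, chr4:150154522-150154821, plus strand: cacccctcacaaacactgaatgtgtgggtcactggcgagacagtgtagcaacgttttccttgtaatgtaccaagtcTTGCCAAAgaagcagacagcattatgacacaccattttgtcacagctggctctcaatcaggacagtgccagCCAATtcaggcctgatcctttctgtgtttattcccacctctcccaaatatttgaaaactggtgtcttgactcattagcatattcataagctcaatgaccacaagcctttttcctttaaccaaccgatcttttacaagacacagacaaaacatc

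The C/EBP motif, searched as TTGCNNAA and its reverse complement, was present in the windows of Plin1, Cidec and Lep and in the downstream window of Pparg, that is in 4 of 7 windows, against 10.6% of all 33469 windows in the table. The matches began 77 bases before the start of Plin1, 209 before that of Cidec, 69 before that of Lep and 174 before that of Pparg. The match of Lep reads the same on both strands. The CCAAT box (CCAAT) was found in the windows of Adipoq, at 42 and 69 bases before the start, and of Plin1, Lep and the downstream start of Pparg, against 37.5% of all windows. The direct repeat bound by PPARG with RXRA, that is 2 copies of AGGTCA with 1 base between them, was in none of the 7 windows and in 0.0538% of all. A single AGGTCA, which also lies within that repeat, occurred at 2 places in the window of Retn and in 16.2% of all windows. A match describes letters only, and no binding was measured.

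All 3 hormone genes of the set were higher in each postnatal library than in any fetal one. Adiponectin, a circulating hormone that raises insulin sensitivity in liver and muscle, is the most specific marker of a fat cell among them. Adipoq stood at 2.94, 13.3 and 20.4 scaled CPM in postnatal replicates 1, 2 and 3 against 0.276, 0.508 and 0.123 in fetal replicates 1, 2 and 3. The lowest postnatal library lay above the highest fetal one, and among the postnatal libraries replicate 1 was far lower than the other two. The rise was 3.04 ± 0.56 (SE) on the log2(scaled CPM + 1) scale (limma, adjusted p = 0.00211), and 3.76 without postnatal replicate 1. Adipoq passed the filter on low values (at least 1 in at least 3 libraries) only through its postnatal values. Its log2 fold change depends on the constant added before the log, from 4.66 with 0.1 to 1.54 with 5, both still called. In edgeR on the recovered reads the log2 fold change was 5.32. In recovered reads, pooled over the group, Adipoq was 41.7-fold higher in the postnatal than in the fetal libraries (exact 95% counting interval 29.6 to 60.5, which covers counting error only), and 66.7-fold without fetal replicate 2.

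Leptin, the hormone that signals fat stores to the brain, was at the edge of detection. Lep had 2, 5 and 5 reads in postnatal replicates 1, 2 and 3 (0.101, 0.172 and 0.171 scaled CPM) and no read in any fetal library. Against a floor of 3 reads over the whole fetal group, the postnatal level was 5.45-fold higher. This ratio leaves out the counting error of the few postnatal reads, so it is not a lower bound. Resistin, a small cysteine-rich hormone of rodent fat, was also low, with 0.405, 1.65 and 1.81 scaled CPM for Retn in postnatal replicates 1, 2 and 3 against 0, 0.0968 and 0.0617 in fetal replicates 1, 2 and 3. This was 109 postnatal against 6 fetal reads, a pooled ratio of 24.7 (exact 95% counting interval 11.004 to 68.9), which was 45.4 without fetal replicate 2 (2 fetal reads, interval 12.3 to 379). Neither gene passed the filter of the main test, and each had p = 0.1 in an exact two-sided permutation test over the 6 libraries, where no smaller p can be had with 3 against 3. In edgeR's quasi-likelihood test on recovered reads over all genes with at least 10 reads, which was added after the data were seen, both were higher (adjusted p = 0.00806 for Lep and 0.00338 for Retn). Both reached 10 reads only through the postnatal libraries, so these calls are not independent of the direction.

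Of the lipid droplet genes, Plin1 separated the groups and Cidec did not. Perilipin 1 coats the single large droplet of the fat cell and controls the access of lipases to it. Plin1 stood at 0.709, 3.06 and 4.78 scaled CPM in postnatal replicates 1, 2 and 3 against 0.0307, 0.121 and 0 in fetal replicates 1, 2 and 3. The fetal values rest on 6 reads in all against 243 postnatal reads, a pooled ratio of 55.1 (exact 95% counting interval 24.97 to 152). Fetal replicate 2 held 5 of the 6 fetal reads, and without it the ratio was 202, from 1 fetal read (interval 36.0 to 8022). CIDEC makes droplets fuse into larger ones. Cidec stood at 0.506, 3.75 and 5.57 in postnatal replicates 1, 2 and 3 against 0.645, 0.799 and 0.308 in fetal replicates 1, 2 and 3. Postnatal replicate 1 lay inside the fetal range, so the groups overlapped (p = 0.3, exact two-sided permutation test). For Plin1 the exact permutation p was 0.1, the smallest possible. Neither gene passed the filter of the main test. In edgeR over all genes with at least 10 reads, the adjusted p was 0.00212 for Plin1 and 0.0269 for Cidec, and without any filter limma called Plin1 (adjusted p = 0.0131) but not Cidec (adjusted p = 0.0973). Plin1 reached 10 reads only through the postnatal libraries, so its edgeR call is not independent of the direction.

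Lipe, Lpl and Fabp4 were expressed in all 6 libraries and rose. Lipe, whose product hydrolyses diacylglycerol in the droplet, had 17.2, 33.3 and 30.1 scaled CPM in postnatal replicates 1, 2 and 3 against 4.18, 5.37 and 3.95 in fetal replicates 1, 2 and 3 (log2 fold change 2.30 ± 0.25 SE; limma adjusted p = 0.000195). Lpl had 214, 264 and 294 scaled CPM in postnatal replicates 1, 2 and 3 against 21.3, 52.1 and 19.4 in fetal replicates 1, 2 and 3 (3.15 ± 0.34; limma adjusted p = 0.000208). Its postnatal libraries were close to each other in scaled CPM, and fetal replicate 2 stood above the other fetal libraries. Fabp4 had 70.1, 160 and 256 scaled CPM in postnatal replicates 1, 2 and 3 against 8.17, 21.8 and 15.4 in fetal replicates 1, 2 and 3 (3.25 ± 0.49; limma adjusted p = 0.000834). For each of the 3 genes the groups did not overlap, and the call held when any 1 library, or fetal replicate 2 and postnatal replicate 1 together, were left out. Without those 2 libraries the Fabp4 log2 fold change was 4.05.

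Pparg, the nuclear receptor of the set, showed the smallest rise among those tested. It stood at 3.34, 8.57 and 11.9 scaled CPM in postnatal replicates 1, 2 and 3 against 2.98, 2.20 and 1.51 in fetal replicates 1, 2 and 3. The groups did not overlap, but postnatal replicate 1 lay close to fetal replicate 1. The log2 fold change was 1.36 ± 0.39 (SE; limma adjusted p = 0.0165). The call ended without fetal replicate 3 (adjusted p = 0.0639), without postnatal replicate 2 (0.0541), with CPM not adjusted between libraries (0.0681) and with quantile normalization (0.0604). With 5 added before the log, the Pparg log2 fold change was 0.79 and still called.

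**Figure D1:**
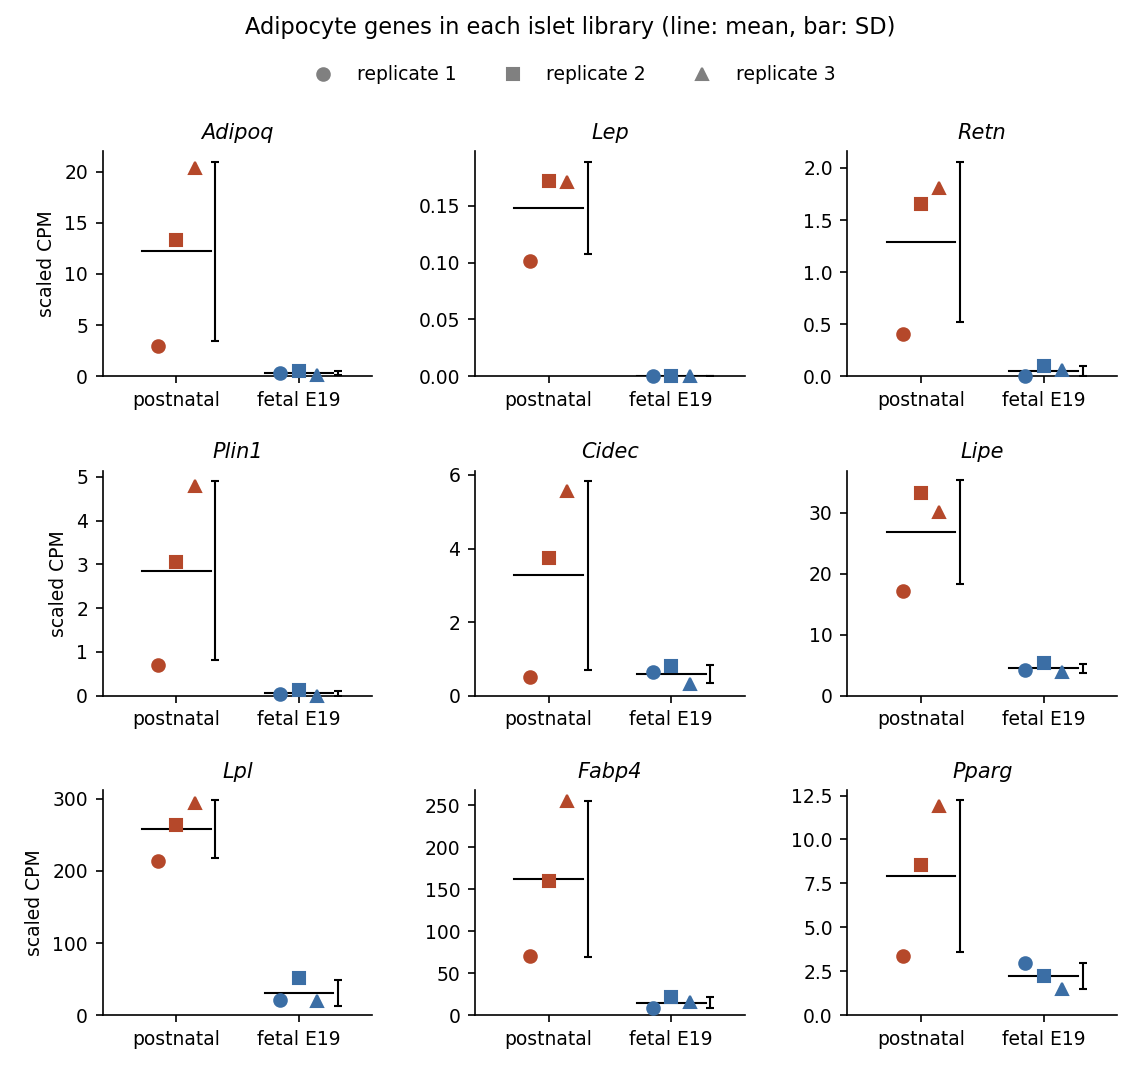
Scaled CPM of the 9 adipocyte genes in each library, postnatal on the left and fetal E19 on the right of each panel, with the mean as a line and the SD as a bar (n = 3 each); each panel has its own axis starting at 0. Postnatal replicate 1 (circle) is the lowest postnatal library in all 9 panels, and in Cidec it lies at 0.506, inside the fetal range. The share of all genes lowest in that library was not counted.

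Set against all genes, the 5 adipocyte genes that could be tested were all called higher, where 30.0% of the 12926 genes tested were called higher and 33.1% lower. Since Adipoq was tested only because its postnatal values are high, this count is not independent of the direction. Over all 9 genes, 8 had every postnatal value in scaled CPM above every fetal one, against 29.6% of the 16946 genes with a read. Pparg, among these 8, overlapped with CPM not adjusted between libraries. In edgeR over genes with at least 10 reads all 9 were called higher, against 27.4% of the 15522 genes tested there. Without any filter limma called 8 of 9 higher, all but Cidec, against 24.8%. Lep reached 10 reads through the postnatal libraries alone, and Plin1 and Retn had 6 fetal reads each.

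Most of these genes varied widely among the 3 postnatal libraries, and Lpl did not. The ratio of the highest to the lowest postnatal library was 10.99 for Cidec, 6.93 for Adipoq, 6.75 for Plin1 and 4.47 for Retn. It was 3.65 for Fabp4, 3.57 for Pparg, 1.93 for Lipe, 1.70 for Lep and 1.37 for Lpl. Across the 12926 tested genes the median of this ratio was 1.29, and 0.975% of them reached 4, as did 1 of the 5 tested adipocyte genes (Adipoq). Cidec, Plin1 and Retn were under the filter and had 8 to 14 reads in the lowest library. Over the 15118 genes with a read in every postnatal library, such low genes included, the median was 1.35 and 3.39% reached 4. The lowest library was postnatal replicate 1, labelled week 2, for all 9 genes. The share of all genes that were lowest there was not counted. Summed endothelial, mesenchymal, macrophage and islet hormone markers were also lowest in that library, and the acinar sum was highest. The endothelial sum, for example, was 816, 1244 and 1144 scaled CPM in postnatal replicates 1, 2 and 3. By the age label, 7 of the 9 (all but Lep and Lipe) rose from week 2 through week 3 to week 4, an order found in 19.3% of the 16946 genes with a read. Among tested genes it was 4 of 5, against 21.0%. Each week is 1 library and the titles give all of them as 2 weeks, so age, library and tissue mix cannot be told apart here, and no test of age was made.

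**Figure D2:**
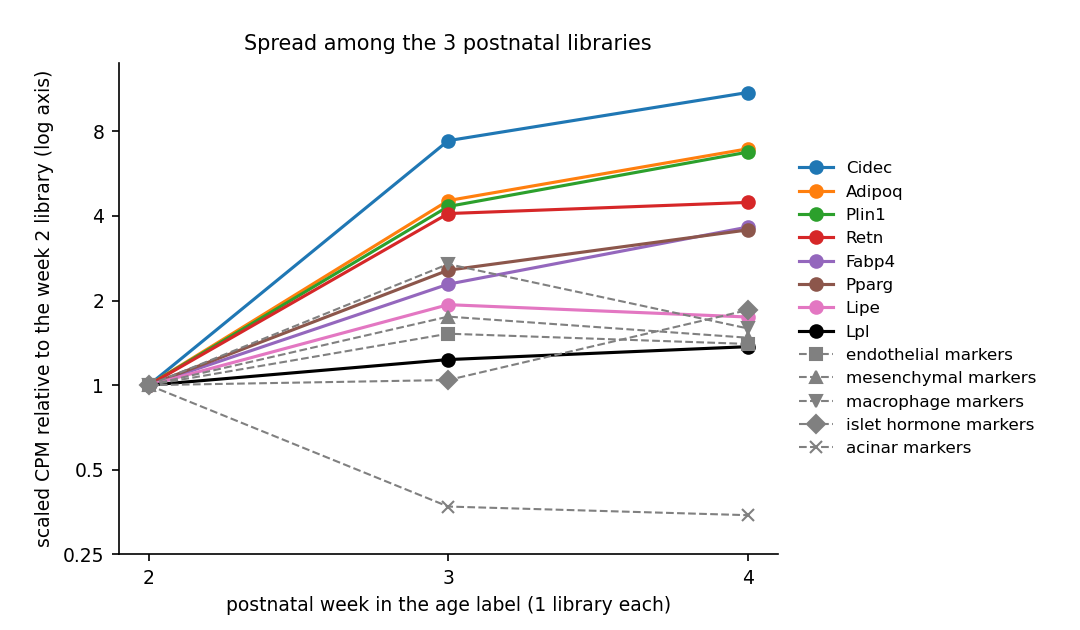
Level in each postnatal library relative to the library labelled week 2, for 8 adipocyte genes (solid lines) and for summed marker lists (dashed grey lines), on a log axis. At week 4 Cidec reaches 10.99, Adipoq 6.93 and Plin1 6.75, while the endothelial and mesenchymal sums reach at most 1.75 times the week 2 level, the islet hormone sum 1.85 and the macrophage sum 2.70 (in the week 3 library), and the acinar sum falls below 1 after week 2.

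Ratios of reads within a library do not depend on the scaling between libraries. They do depend on transcript length, so only their change between libraries is of use. Plin1 kept a near constant ratio to Adipoq, at 24.1, 23.0 and 23.5 reads per 100 Adipoq reads in postnatal replicates 1, 2 and 3 (exact 95% counting intervals 12.4 to 43.8, 18.1 to 29.0 and 19.4 to 28.3). The levels themselves differed 6.75-fold for Plin1 and 6.93-fold for Adipoq among these libraries. In fetal replicate 2, the fetal library with the most reads of either gene, the ratio was 23.8 from 5 Plin1 reads (interval 7.01 to 64.9). It was 11.1 in fetal replicate 1 and 0 in fetal replicate 3, from 1 and 0 Plin1 reads, with intervals that reach 80.2 and 151. Retn stood at 13.8, 12.4 and 8.89 reads per 100 Adipoq reads in postnatal replicates 1, 2 and 3, with overlapping intervals. Its fetal ratios rest on 0 to 4 reads.

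Cidec and Pparg behaved otherwise. Cidec had 17.2, 28.2 and 27.3 reads per 100 Adipoq reads in postnatal replicates 1, 2 and 3, against 233, 157 and 250 in fetal replicates 1, 2 and 3. The lowest fetal interval began at 72.1 and the highest postnatal interval ended at 34.9. Pparg had 114, 64.3 and 58.6 reads per 100 Adipoq reads in postnatal replicates 1, 2 and 3 against 1078, 433 and 1225 in fetal replicates 1, 2 and 3. Fabp4 had 2386, 1203 and 1257 in postnatal replicates 1, 2 and 3 against 2956, 4295 and 12450 in fetal replicates 1, 2 and 3. Lpl had 7302, 1985 and 1444 in postnatal replicates 1, 2 and 3 against 7711, 10243 and 15700 in fetal replicates 1, 2 and 3. The Fabp4, Lpl and Pparg ratios of postnatal replicate 1 were thus above those of the other postnatal libraries. The fetal denominators were 9, 21 and 4 Adipoq reads, so the fetal ratios carry wide intervals.

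**Figure D3:**
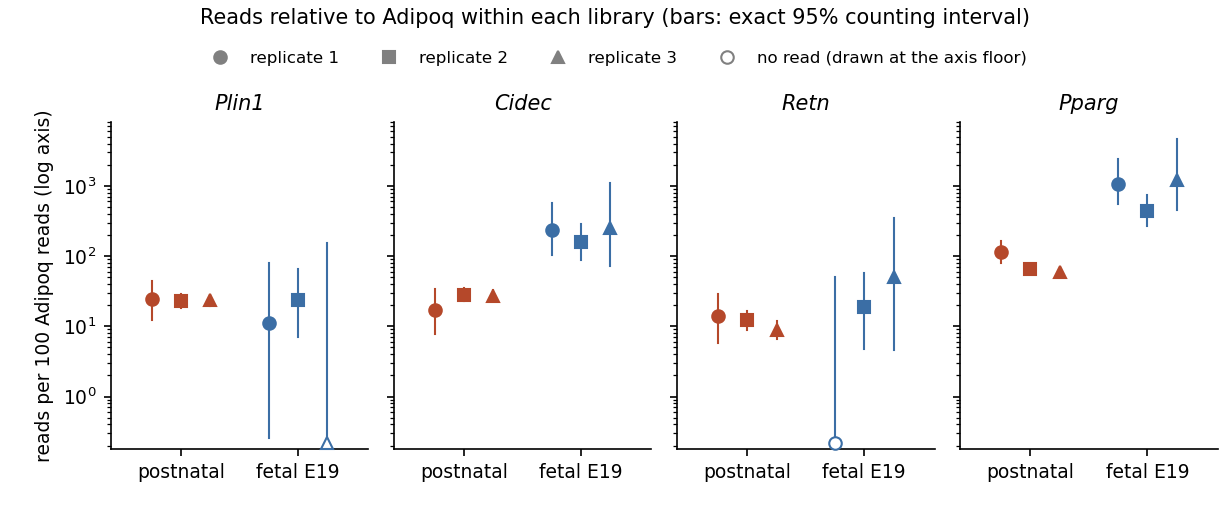
Reads of Plin1, Cidec, Retn and Pparg per 100 Adipoq reads within each library (log axis), postnatal left of fetal E19, with exact 95% counting intervals; open symbols at the floor had no read. The postnatal Plin1 points lie between 23.0 and 24.1, while the fetal Cidec points lie between 157 and 250, above all postnatal ones (17.2 to 28.2).

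Marker genes of other cells that express parts of this set also differed between the groups. All 11 endothelial markers tested rose, with summed levels of 816 to 1244 scaled CPM in the postnatal and 297 to 475 in the fetal libraries (Pecam1 is not analysed here). All 8 mesenchymal markers tested rose, with sums of 6731 to 11802 postnatal and 1498 to 2259 fetal. Of 10 macrophage markers 4 rose and none fell, with sums of 107 to 288 postnatal and 68.4 to 165 fetal, which overlap. Without 1 library the count that rose was 2 (without fetal replicate 3 or postnatal replicate 2) to 6 (without fetal replicate 2 or postnatal replicate 1), and it was 8 without fetal replicate 2 and postnatal replicate 1 together. Over all genes 30.0% were higher. With CPM not adjusted between libraries, 7 of the endothelial, 7 of the mesenchymal and 1 of the macrophage markers rose. No marker of these lists was at 0 in all libraries. Their part in the rise of Fabp4, Lpl, Lipe and Pparg was not tested.

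Set per 1000 reads of the endothelial markers in the same library, Adipoq stood at 3.60, 10.7 and 17.8 in postnatal replicates 1, 2 and 3 against 0.931, 1.07 and 0.375 in fetal replicates 1, 2 and 3, without overlap. Fabp4 stood at 85.9, 129 and 224 in postnatal replicates 1, 2 and 3 against 27.5, 46.0 and 46.7 in fetal replicates 1, 2 and 3. Lpl stood at 263, 213 and 257 in postnatal replicates 1, 2 and 3 against 71.8, 110 and 58.9 in fetal replicates 1, 2 and 3. Lipe stood at 21.1, 26.8 and 26.3 in postnatal replicates 1, 2 and 3 against 14.1, 11.3 and 12.01 in fetal replicates 1, 2 and 3. These 4 genes thus lay higher in the postnatal libraries also relative to the endothelial markers. Pparg overlapped between the groups, with 4.09, 6.89 and 10.4 in postnatal replicates 1, 2 and 3 against 10.03, 4.64 and 4.60 in fetal replicates 1, 2 and 3. Most of the mesenchymal sum was Col3a1 in every library, at 5424 of 6731 scaled CPM in postnatal replicate 1 and 1320 of 1823 in fetal replicate 1. Ratios to this sum therefore mostly follow that gene. Per 1000 mesenchymal marker reads, Adipoq did not overlap (0.436, 1.13 and 2.05 in postnatal replicates 1, 2 and 3 against 0.152, 0.225 and 0.0823 in fetal replicates 1, 2 and 3). Fabp4 was close but did not overlap (10.4, 13.6 and 25.8 in postnatal replicates 1, 2 and 3 against 4.48, 9.66 and 10.2 in fetal replicates 1, 2 and 3). Pparg overlapped, at 0.496 to 1.20 in postnatal and 0.975 to 1.63 in fetal libraries. Lpl overlapped between the groups (31.8, 22.4 and 29.6 in postnatal replicates 1, 2 and 3 against 11.7, 23.0 and 12.9 in fetal replicates 1, 2 and 3). Lipe overlapped as well (2.56, 2.82 and 3.03 in postnatal replicates 1, 2 and 3 against 2.29, 2.38 and 2.63 in fetal replicates 1, 2 and 3). Per 1000 macrophage marker reads, none of these genes overlapped. Values in postnatal and fetal libraries were 29.8 to 70.2 and 13.4 to 27.5 for Pparg, and 919 to 2010 and 197 to 316 for Lpl. For Lipe they were 116 to 177 and 32.6 to 57.7, and for Fabp4 557 to 1506 and 75.4 to 225. Those of Adipoq were 27.5 to 120 and 1.80 to 3.09. No ratio to the islet hormone genes was taken, although Lipe is also known from the beta cell. The hormone genes summed to 59968 to 110913 scaled CPM in the postnatal and 2023 to 5602 in the fetal libraries. Whether any adipocyte gene rose relative to them was not tested.

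Genes of the same pathways were drawn from lists and tested in the same way. Those named as rising or falling had limma adjusted p-values between 5.27e-06 (Dlk1) and 0.0235 (Dgat1). Of 14 genes tested among the partners of lipoprotein lipase and of fatty acid uptake, 4 rose and 5 fell, which is near the shares over all genes (30.0% higher and 33.1% lower). Their median log2 fold change was -0.01, against -0.03 over all genes tested. Only 3 fell without fetal replicate 2, without fetal replicate 2 and postnatal replicate 1 together, and after rescaling without the 20 highest genes. Gpihbp1, which carries the lipase across the capillary wall, rose to 30.3 ± 7.601 scaled CPM in postnatal libraries against 7.68 ± 2.02 in fetal libraries (mean ± SD, n = 3 each; log2 fold change 1.85 ± 0.24 SE). Angptl4, a secreted inhibitor of the lipase, stood at 11.5, 53.5 and 48.0 in postnatal replicates 1, 2 and 3 against 4.27, 7.07 and 3.11 in fetal replicates 1, 2 and 3 (2.53 ± 0.54). Vldlr, a receptor for triglyceride-rich lipoproteins, rose by 2.27 ± 0.21. Lmf1, needed for folding of the lipase, fell by 0.74 ± 0.17 on the log2 scale, and Lipg, encoding endothelial lipase, fell by 1.19 ± 0.15, having passed the filter only through its fetal values. Both relatives of Fabp4 that were tested fell. Fabp5, the epidermal relative of Fabp4, had 14.6 ± 2.62 in postnatal and 59.9 ± 24.6 in fetal libraries and fell by 1.91 ± 0.27. Fabp5 has annotated pseudogenes, and the counting could divide its reads. Fabp3 fell by 0.46 ± 0.13, a call lost after rescaling without the 20 highest genes (limma adjusted p = 0.138) and without fetal replicate 2 (limma adjusted p = 0.0581).

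Among other genes of the lipid droplet and of lipolysis, 6 of the 10 tested rose, 2 fell and 2 did not pass (median 0.53), against 30.0% higher and 33.1% lower over all genes, and 3 rose with CPM not adjusted between libraries. Plin4, a perilipin of fat and muscle, showed the largest rise, with 4.56, 7.81 and 10.7 in postnatal replicates 1, 2 and 3 against 0.368, 0.315 and 0.0617 in fetal replicates 1, 2 and 3 (2.74 ± 0.27). It passed the filter only through its postnatal values. Pnpla2, encoding the lipase of the first step of fat breakdown, rose by 1.36 ± 0.17, and its activator gene Abhd5 by 0.51 ± 0.14, a call lost with CPM not adjusted between libraries (limma adjusted p = 0.560). Plin3, a perilipin of most cell types, fell by 1.43 ± 0.12, and G0s2, an inhibitor of Pnpla2, by 0.56 ± 0.17. The G0s2 call was lost after rescaling without the 20 highest genes and without fetal replicate 2, fetal replicate 3, postnatal replicate 2, or fetal replicate 2 and postnatal replicate 1 together (limma adjusted p between 0.0606 and 0.0864). Plin2, the perilipin of non-adipose cells, had 34.6 ± 8.32 in postnatal and 32.9 ± 7.06 in fetal libraries, a difference whose sign changed with the scaling and with left-out libraries. It was called higher (0.43, limma adjusted p = 0.0258) without fetal replicate 2 and postnatal replicate 1. Mgll, encoding monoacylglycerol lipase, had 64.4 ± 7.13 in postnatal and 55.4 ± 5.49 in fetal libraries, with the sign of its difference changing with the scaling. Mgll was called higher after rescaling without the 20 highest genes, with quantile normalization and without postnatal replicate 1 (limma adjusted p between 0.0177 and 0.0473). Cideb, the liver relative of Cidec, stayed low, at 0.506, 0.516 and 0.444 in postnatal replicates 1, 2 and 3 against 0.860, 1.79 and 0.524 in fetal replicates 1, 2 and 3, and was not tested.

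Of the triglyceride synthesis genes, 6 of 14 tested rose, 4 fell and 4 did not pass (median 0.17), which is near the shares over all genes (30.0% higher and 33.1% lower). Only 3 rose without fetal replicate 1, fetal replicate 2, postnatal replicate 2 or postnatal replicate 3. Pck1, which makes glycerol backbones in fat cells and is also a liver and kidney enzyme, stood at 1.16, 3.75 and 8.91 in postnatal replicates 1, 2 and 3 against 0.0614, 0.411 and 0.0308 in fetal replicates 1, 2 and 3 (2.01 ± 0.49), and passed the filter only through its postnatal values. Acsl1, an acyl-CoA synthetase, rose by 0.88 ± 0.19, a call lost with CPM not adjusted between libraries (limma adjusted p = 0.113). Dgat2, which catalyses the last step of triglyceride synthesis, fell to 8.82 ± 1.46 in postnatal libraries against 43.7 ± 7.97 in fetal libraries (-2.18 ± 0.17). Dgat1, of the same step, rose by 0.38 ± 0.12 (limma adjusted p = 0.0235) and was named here after its values were seen. Its call was lost with CPM not adjusted between libraries (limma adjusted p = 0.878). It was also lost without fetal replicate 1, fetal replicate 2, postnatal replicate 2 or postnatal replicate 3. Mogat2, which acts in an alternative route, fell by 2.06 ± 0.14. With CPM not adjusted between libraries, 1 gene of the list rose and 4 fell, and after rescaling without the 20 highest genes 8 rose and 2 fell.

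Of 16 tested genes that act with PPARG, 8 rose, 3 fell and 5 did not pass (median 0.40), against 30.0% higher and 33.1% lower over all genes. Rxrg, which rose, passed the filter only through its postnatal values. Cebpd, an early factor of fat cell differentiation, stood at 16.7, 34.3 and 49.99 in postnatal replicates 1, 2 and 3 against 3.56, 4.16 and 3.298 in fetal replicates 1, 2 and 3 (2.77 ± 0.35). Ebf1 rose by 1.94 ± 0.24. Rxra, the partner of PPARG on DNA, had 21.6 ± 0.885 in postnatal and 14.8 ± 1.66 in fetal libraries and rose by 0.52 ± 0.12, a call lost with CPM not adjusted between libraries (limma adjusted p = 0.554). Cebpa, a late factor of fat cell differentiation, fell by 0.64 ± 0.17 and Srebf1, a regulator of lipid synthesis, by 0.69 ± 0.15. The Cebpa call was lost after rescaling without the 20 highest genes (limma adjusted p = 0.0585). With CPM not adjusted between libraries 4 of the list rose and 5 fell, and after rescaling without the 20 highest genes 9 rose and 1 fell. Cebpb is not analysed here.

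Of 14 fat hormones and receptors tested, 9 rose, none fell and 5 did not pass (median 0.98), against 30.0% higher and 33.1% lower over all genes. The count that rose was 6 with CPM not adjusted between libraries and 12 after rescaling without the 20 highest genes, and none fell in either. Lepr, the leptin receptor, had 16.9 ± 4.32 scaled CPM in postnatal and 2.00 ± 0.375 in fetal libraries (2.55 ± 0.21). Cdh13, a cadherin that binds adiponectin, rose by 2.44 ± 0.27. The adiponectin receptors Adipor1 (147 ± 4.51 in postnatal and 142 ± 13.3 in fetal libraries) and Adipor2 (83.8 ± 5.01 in postnatal and 87.7 ± 6.57 in fetal libraries) did not pass, and the sign of both differences changed with the scaling. Adipor1 was called higher after rescaling without the 20 highest genes and with quantile normalization (limma adjusted p = 0.0148 and 0.0143). Sfrp5, a secreted Wnt inhibitor, showed the largest rise of the list, to 91.1 ± 29.6 in postnatal libraries against 1.49 ± 0.765 in fetal libraries (5.20 ± 0.29), and Rarres2, encoding chemerin, rose by 2.65 ± 0.17.

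Of 8 other adipocyte genes tested, 5 rose, 1 fell and 2 did not pass (median 1.20), against 30.0% higher and 33.1% lower over all genes. Trarg1, which aids the trafficking of the insulin-sensitive glucose transporter, stood at 4.86, 14.5 and 14.5 in postnatal replicates 1, 2 and 3 against 0.123, 0.678 and 0.154 in fetal replicates 1, 2 and 3 (3.12 ± 0.39), and passed the filter only through its postnatal values. Slc2a4, the gene of that transporter, rose by 1.87 ± 0.42. The gene that fell was Dlk1, a preadipocyte marker that is also strongly expressed in fetal endocrine pancreas (-4.70 ± 0.13). The brown fat gene Ucp1 did not exceed 0.0688 scaled CPM in the postnatal and 0.0614 in the fetal libraries, less than 3 reads in each, and Elovl3 was as low. Cox8b, another brown fat gene of the list, also under the filter, had 0.253, 0.172 and 0.341 in postnatal replicates 1, 2 and 3 against 0, 0.0242 and 0.0308 in fetal replicates 1, 2 and 3. It was called in edgeR over genes with at least 10 reads (adjusted p = 0.00595) and in limma without a filter (adjusted p = 0.00494). Cox8b reached 10 reads only through the postnatal libraries. Cidea, a relative of Cidec known from brown fat and counted in the lipid droplet list, rose by 1.04 ± 0.17 (limma adjusted p = 0.00124), and passed the filter only through its postnatal values. Cox8b and Cidea were named here after their values were seen.

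**Figure D4:**
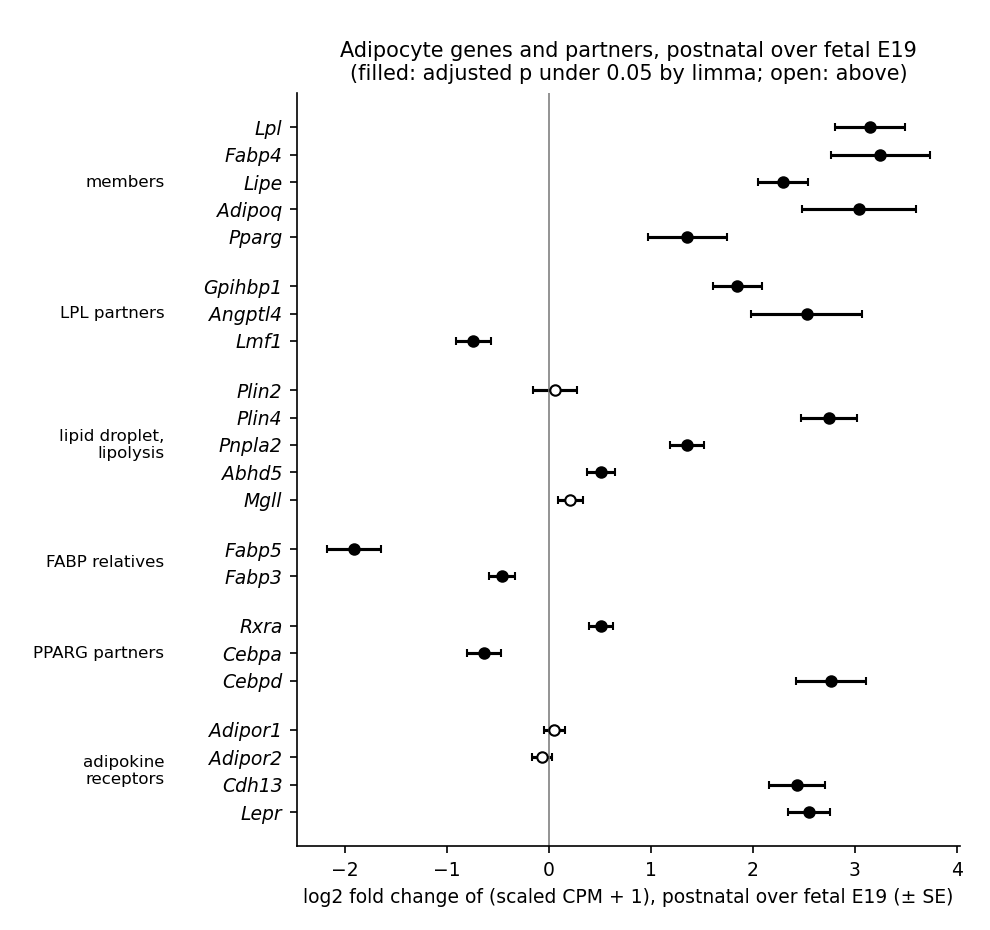
Log2 fold change of scaled CPM + 1, postnatal over fetal E19, with SE, for the 5 tested adipocyte genes and their partners (limma on 6 libraries; filled symbols passed, open ones did not). Fabp4 (3.25) and Fabp5 (-1.91) lie on opposite sides of 0, as do Cebpd (2.77) and Cebpa (-0.64), and the signs of the open symbols change with the scaling or with a left-out library.

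The genes whose log2 values followed Adipoq most closely over the 6 libraries were Esyt3, Nfkbia, Adamts4, Tpsb2 and Daam1 (Pearson r 0.998 to 0.999). Tpsb2, a tryptase of mast cells, stood between 1.21 and 7.31 scaled CPM in the postnatal and between 0 and 0.169 in the fetal libraries. It passed the filter only through its postnatal values. A high r does not mean a change of like size, and Daam1 stood between 60.3 and 84.1 in the postnatal and between 50.1 and 52.5 in the fetal libraries. Those closest to Fabp4 were Zfp394, Rictor, Fbxo6, Rnf13 and Mcoln1 (0.996 to above 0.999), and those closest to Lpl were Myrip, Il13ra1, Vamp5, Osbpl8 and Flvcr2 (0.997 to 0.999). With 6 libraries in 2 groups many genes correlate this closely, 59 with Adipoq, 48 with Fabp4 and 98 with Lpl at an r of at least 0.99, and the libraries share their depth and tissue mix.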

How the data were processed

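Total RNA from freshly isolated islets was made into libraries with a stranded kit that depletes ribosomal RNA, per the labels' protocols. Per the submitters' processing notes, TopHat2 2.0.8b and edgeR 3.30.3 are listed, in roles that are not stated. The build, annotation, read counter and strand setting are likewise not given in the sources used here. Reads of overlapping or antisense genes may therefore be mixed.

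The authors deposited 1 table of normalized signal per gene with no unit named. All values (100%) were whole reads times 1 constant per library within 0.001 reads, which gave back the reads. The rows without a gene name, at most 3.19e-05% of a library, were left out. Counts of replicate pairs differed beyond counting noise (chi-square over degrees of freedom 45.6 to 370), so no pair was treated as 1 library deposited again.

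The test was limma 3.58.1 (R 4.3.3; trend on, group only, two-sided) of log2(value + 1) over genes with at least 1 in at least 3 libraries, with Benjamini-Hochberg adjustment over all of them and calls under 0.05. This scale understates changes of low genes. Alternatives included count tests of the recovered reads (edgeR 4.0.16, DESeq2 1.42.0). Genes under the filter got an exact permutation test. Intervals are exact (Clopper-Pearson) at 95% and cover counting error only. Motifs were searched in RefSeq windows.

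The members and lists were chosen with earlier results of these data known. Named were the 10 genes, 17 direct partners, the 2 largest called rises and falls of each pathway list, and the 5 genes closest to Adipoq, Fabp4 and Lpl. Samples were grouped by title.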

Additional observations from a re-analysis of the deposited data

How the results depend on the processing

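Of the 5 tested adipocyte genes, Adipoq, Fabp4, Lpl and Lipe stayed higher and called under each alternative in which they were tested, and Pparg stayed higher in all of them but lost its call in 4 (named with its values above). The number of adipocyte genes called higher was 5. It was 8 with no filter beyond a value above 0, 3 with a filter at 5 and 9 with edgeR over genes of at least 10 reads, because these settings tested 9, 3 and 9 of the genes. It was 4 to 5 when single libraries were left out, 5 without fetal replicate 2 and postnatal replicate 1 together (chosen after seeing the data, as were the pooled read ratios without single libraries), and none was lower under any setting. Over all genes, 3874 were higher and 4278 lower, or 47.5% of the calls higher. With CPM not adjusted between libraries 1856 were higher (26.8% of the calls), with a median log2 fold change of -0.35 over all genes, and after rescaling without the 20 highest genes 61.1% of the calls were higher, with a median of 0.20. edgeR called 4060 higher and 4068 lower, and DESeq2 4206 and 4160.

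Same-numbered libraries did not deviate together (r of -0.21, 0.10 and -0.25 for numbers 1, 2 and 3). With 3 libraries per group this cannot exclude a shared litter or batch. Of the 3 postnatal libraries, 0 correlated best with the fetal library of the same number. With the replicate number as a block, 3563 genes were higher and 3863 lower, and all 5 tested adipocyte genes stayed called (Pparg at a limma adjusted p of 0.0383). With 3 libraries per group and 0 to 33 fetal reads per library for Adipoq, Lep, Retn, Plin1 and Cidec, depth limits what can be said of these 5 genes in the fetal islets.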
